A study of Mus musculus with 10 samples.

Results

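The genes described here encode the proteins of the cytosolic ribosome. They are the rows of the deposited count table on the 19 autosomes whose symbol is Rpl or Rps followed by a number (with or without a final a), or Rplp0, Rplp1 or Rplp2, and that hold at least 10 counts in every library. This rule kept 71 of 52632 rows, 43 of the large subunit and 28 of the small subunit. The name pattern matched 74 rows in all. Rpl10, Rpl36a and Rpl39 lie on the X chromosome and were left out by the rule, and 0 autosomal rows failed the count minimum. The rule uses names, chromosomes and a count minimum, so neither genotype nor allele chose the members, and all 71 also passed the filter on low counts used for testing.

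Ribosomal proteins assemble with ribosomal RNA into the small subunit, which reads the message, and the large subunit, which joins the amino acids. Cells make them in near equal amounts, and their messages are among the most abundant in growing cells such as neural progenitors. Many of these messages begin with an unbroken run of C and T bases, the terminal oligopyrimidine tract, through which mTOR and LARP1 control their translation. Each gene has also left processed pseudogenes across the mouse genome, so short reads from a ribosomal protein message can match more than 1 place.

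Neural stem cells were grown as adherent layers from embryonic day 14.5 mouse cortex, all with 20 ng/mL EGF and 20 ng/mL basic FGF, and their poly(A) RNA was sequenced, with a separate culture for each embryo. The study compared cells heterozygous for the E147A change in SMCHD1, a chromatin protein of the inactive X chromosome with an ATPase domain, against Smchd1 +/+ cells. The groups were female E147A/+ (n = 2, litters 1 and 2), female +/+ (n = 2, both litter 3), male E147A/+ (n = 3, litters 1, 1 and 3) and male +/+ (n = 3, litters 4, 1 and 3). The mutant allele carries a GFP tag that the +/+ allele lacks, so tag and mutation cannot be told apart. All females, of either genotype, also carry a deletion allele of Xist (Xist deltaA), and in females genotype and litter cannot be told apart. The mothers were F1 animals of 129 and C57 background and the fathers Castaneus (Cast), per the labels. The table gives total counts for 10 libraries and, for the 4 female ones, counts assigned to the 129 or the Cast allele.

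Libraries held 20648916 to 44519020 counts. Replicates of a group differed by far more than sampling noise (chi-square per gene 35.9 to 211), so no library was counted more than once. The targeted gene, Smchd1, had a log2 fold change of -0.42 (SE 0.15, edgeR adjusted p = 0.786) over both sexes, and the point mutation itself cannot be read from gene counts. Counts of 4 Y-linked genes in female +/+ 1 and 2 reached 1.72% and 0.432% of the male mean, against 0.0678% and 0.0413% in female E147A/+. Marker levels fit the labelled cell type, with 5071 to 7175 CPM (counts scaled to library size after TMM normalisation) summed over neural stem cell genes such as Nes and Sox2. Summed astrocyte markers were 315 to 432 CPM and summed oligodendrocyte lineage markers 1359 to 2037. Summed markers of microglia stayed under 2.9 CPM, of endothelium under 4.2 and of erythroid cells under 0.8.

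Ribosomal protein messages differed widely in abundance, and the stalk protein gene Rplp1 led. Per kilobase of spliced transcript, its mean over the 10 libraries was 2702 CPM per kilobase. Rps14, Rps18, Rpl32 and Rps9 followed with 2257, 2237, 2146 and 1877. The median member stood at 980.1 CPM per kilobase. The lowest were Rpl21 (16.0), Rpl29 (18.3), Rpl24 (86.4), Rpl7a (173) and Rpl13a (201). Rpl21 and Rpl29 thus stood far below the median on this scale. For both, genes that share sequence with them held most of the summed counts, with values given under the copies. Of the 71 members, 69 share at least 1 stretch of 80 bases, the read length, with another gene, and Rps3 is one of the 2 that share none. In 35 members more than 50% of all such stretches are shared, and the median is 49.3%. Across members, level per kilobase had a Spearman correlation of -0.239 with the shared percentage and of -0.393 with the number of pseudogenes that share a stretch (71 members from the same 10 libraries, a description only).

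Start sites were compared with the other genes, because the oligopyrimidine tract begins at the first transcribed base. RefSeq promoter windows (build GRCm38.p6, 250 bases before to 50 from the start) matched 51 of the 71 members by symbol, and 32 of these starts lie within 50 bases of the gene's 5′ end in the deposited coordinates. A run of 6 or more C or T bases that touches the interval from 5 bases before to 5 after the start was present in 27 of 51 members (52.9%), against 20.9% of 26974 other promoters. A run of 10 or more was present in 14 members (27.5%), against 4.95% of the others. The first base was C in 19 members (37.3%), against 16.1%. The 7 windows printed here cover 15 bases before to 15 from the start, 5′ to 3′ on the gene's strand, and capitals mark the longest C or T run at the start. Rps9 and Rps18 are shown as members of high level, Rpl15 and Rps26 for their allelic balance, Rps6 as the ribosomal protein phosphorylated by S6 kinase, and Rps12 and Rps16 as members with short runs that had low p-values between genotypes.
Rps9: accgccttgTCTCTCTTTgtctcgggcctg
Rps18: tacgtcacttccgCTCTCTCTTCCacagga
Rpl15: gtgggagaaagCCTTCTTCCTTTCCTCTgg
Rps26: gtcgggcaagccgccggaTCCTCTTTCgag
Rps6: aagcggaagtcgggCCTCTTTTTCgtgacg
Rps12: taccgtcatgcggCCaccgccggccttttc
Rps16: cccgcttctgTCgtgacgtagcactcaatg
The windows lie at chr7:3704026-3704055 (plus strand) for Rps9, chr17:33955651-33955680 (minus) for Rps18 and chr14:18270972-18271001 (minus) for Rpl15. They lie at chr10:128626492-128626521 (minus) for Rps26, chr4:86857353-86857382 (minus) for Rps6, chr10:23787195-23787224 (minus) for Rps12 and chr7:28350674-28350703 (plus) for Rps16. Runs were 9, 11, 17, 9 and 10 bases long in Rps9, Rps18, Rpl15, Rps26 and Rps6, and 2 bases in Rps12 and in Rps16. The RefSeq start of Rpl15 lies 405 bases from the gene's 5′ end in the deposited coordinates, that of Rps18 336, that of Rps26 241 and that of Rps12 66. The Rps12 window ends in a further run of C and T bases that lies outside the interval searched.

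Short sequences known from ribosomal protein promoters were searched on both strands of the whole 300-base windows. CCGGAAG, a core sequence of ETS-family factors, was present in 20 of 51 members (39.2%), against 9.06% of the other promoters. TCTCGCGA, a sequence known from ribosomal protein promoters, was present in 9 members (17.6%), against 1.05%, and this short form was chosen after the counts of a longer one had been seen. AAGATGGC, a YY1-type sequence, was present in 4 members (7.84%), against 2.87%, and TATAAA in 3 (5.88%), against 14.2%. CCGGAAG and AAGATGGC can overlap by the letters AAG, and a match describes the window only.

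The summed share of the 71 members in all counts of a library ranged from 4.11% to 6.58%. It was 6.58% and 6.001% in female E147A/+, 4.11% and 5.99% in female +/+, 5.47%, 5.60% and 6.47% in male E147A/+, with 6.09%, 5.63% and 4.40% in male +/+. Female +/+ 1 and male +/+ 3 were the lowest of all libraries, and the other +/+ libraries lay within the range of E147A/+. Group means were 6.29 ± 0.408% (SD, n = 2), 5.05 ± 1.33% (n = 2), 5.85 ± 0.541% (n = 3) and 5.37 ± 0.872% (n = 3). Over both sexes E147A/+ exceeded +/+ by 0.858 percentage points, and the pooled SD within groups was 0.821 points. Both low libraries came from litter 3, which also gave libraries with 5.99% and 6.47%. Within litter 1 the male E147A/+ mean differed by -0.0894 points from the male +/+ library (5.54% against 5.63%), and within litter 3 the male E147A/+ library was 2.07 points above the male +/+ one. In bulk RNA, fewer cells of a type and less RNA per cell cannot be told apart.

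**Figure D1:**
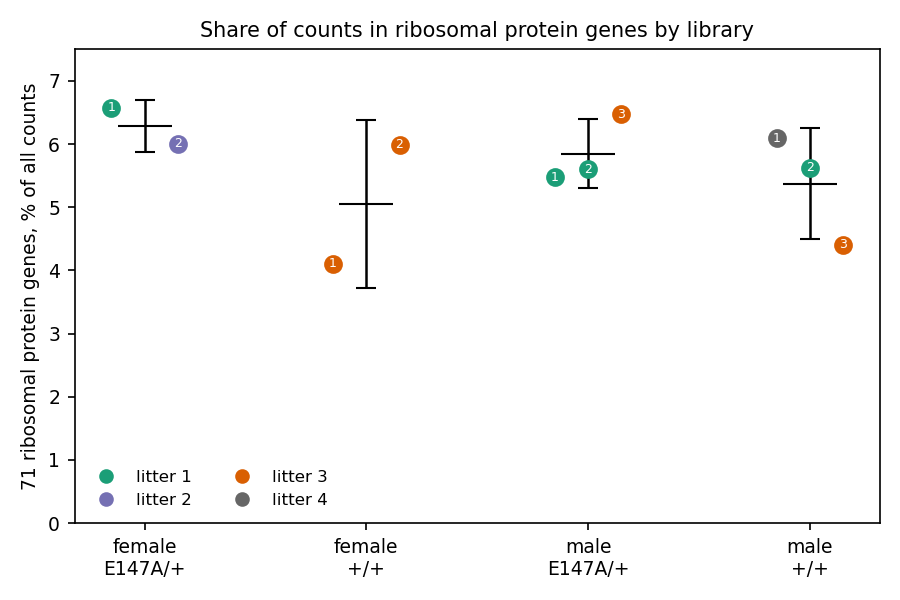
Share of all counts taken by the 71 ribosomal protein genes (vertical axis, percent, from 0) in each of the 10 libraries, grouped by sex and genotype, with the replicate number in each point, the litter as its colour, and mean and SD as lines. Female +/+ 1 (4.11%) and male +/+ 3 (4.40%) lie below the other 8 libraries, which lie between 5.47% and 6.58%.

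The low share of the 2 libraries was spread over nearly all members. In female +/+ 1 all 71 members were below their own mean over the libraries, with a median deviation of -0.45 on the log2 CPM scale (0.730 of the mean), and 37 members had their lowest value there. In male +/+ 3, 62 members were below their mean, with a median deviation of -0.30 (0.814 of the mean), and 25 had their lowest value there. Of all 17110 genes tested, 10.3% had their lowest value in the first library and 16.8% in the other. At the upper end, 30 members had their highest value in female E147A/+ 1 (7.10% of all genes did) and 19 in male E147A/+ 3 (15.4% of all genes), with median deviations of 0.29 and 0.21. The median deviations of the remaining libraries lay between -0.05 and 0.18.

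**Figure D2:**
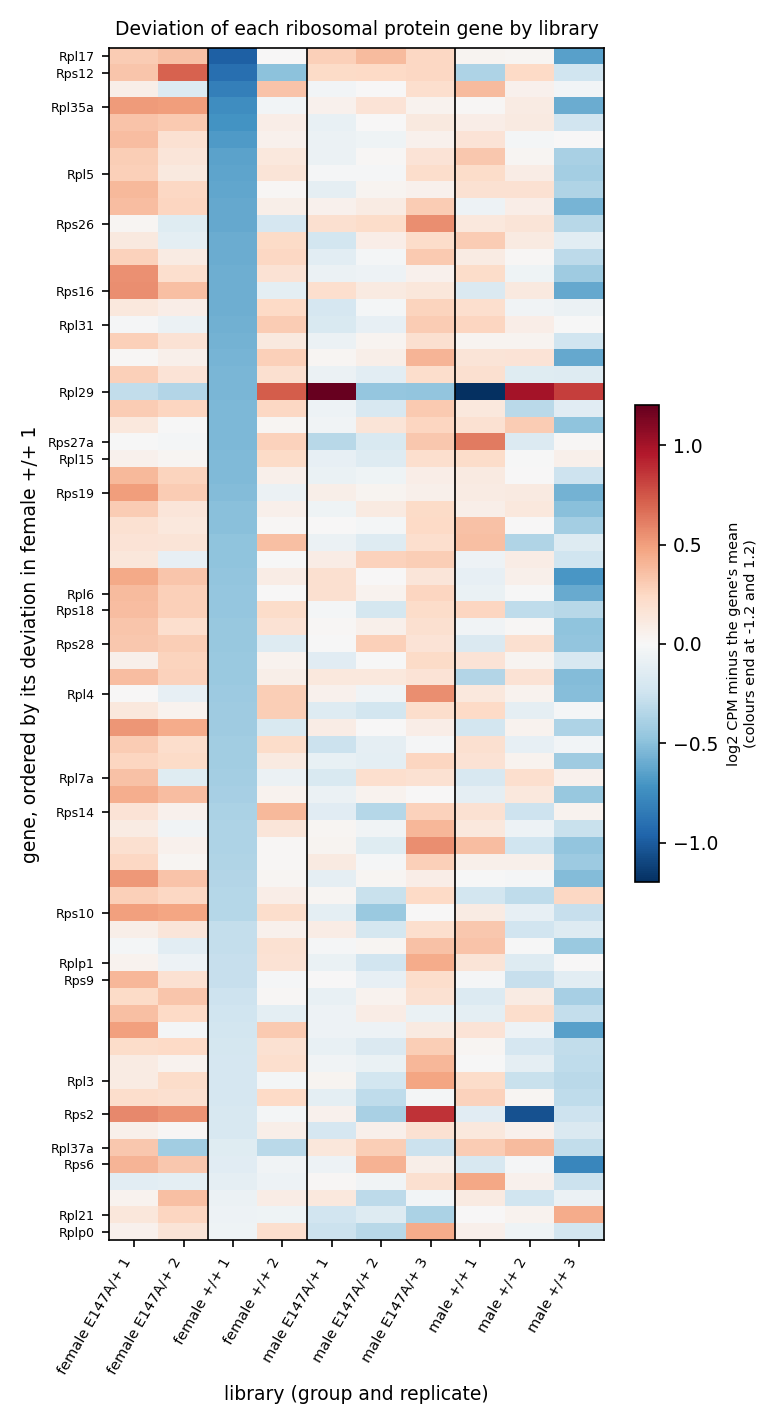
Deviation of each ribosomal protein gene (rows) from its own mean over the 10 libraries (columns), in log2 CPM, by the colour scale, with selected genes labelled. Female +/+ 1 is below the mean for all 71 members and male +/+ 3 for 62, while a few rows such as Rpl21 and Rpl29 do not follow the rest.

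Members moved together between cultures. Across the 10 libraries the median Pearson r over the 2485 pairs of members was 0.627, and 0.697 after group means were removed, against -0.00152 over pairs of all genes and 0.0472 over pairs of 1074 other genes at the members' levels. These values share libraries and scaling and are a description. Without female +/+ 1 and male +/+ 3 the median fell to 0.356 (8 libraries). Rpl5, which binds 5S ribosomal RNA, had the highest mean r with the others (0.730). The lowest were Rpl21 (-0.178), Rpl29 (-0.169) and Rpl37a (0.0897).

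Within groups the members had a median SD of log2 CPM of 0.263, against 0.373 over all genes tested and 0.250 over the other genes at their levels. Rps9 (0.155) and Rpl21 (0.161) were among the smallest SDs. Rpl29 varied most (1.08), from 2.90 CPM in male +/+ 1 to 20.8 in male E147A/+ 1. Rps2, a core protein of the small subunit near the message entry channel, followed with 0.469, and Rps27a, made as a fusion with ubiquitin, with 0.390. Rps27a ranged from 632 CPM in female +/+ 1 to 1413 in male +/+ 1.

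Several cell type marker groups also differed between libraries. Female +/+ 1 and male +/+ 3 were the extremes of some groups and not of others. The 10 neuron markers had median deviations of -1.28 in female +/+ 1 and -0.67 in male +/+ 3, and 1.03 in male E147A/+ 3. In female E147A/+ 2 they were at -0.77 and the members at 0.18. Stmn2, a marker of young neurons, stood at 0.29 and 0.24 CPM in the 2 low libraries and at 0.80 to 24.9 in the others. Summed neuron markers, of which Map2 made up most, were 639 to 771 CPM in female E147A/+, 645 to 813 in female +/+, 577 to 689 in male E147A/+ and 625 to 1036 in male +/+, and none of the 10 was at 0 in all libraries. The highest of these sums was in male +/+ 3, where Map2 alone stood at 981 CPM, although the median marker was low there. The 6 markers of mesenchyme and pericytes summed to 6.17 to 11.0 CPM in female E147A/+, 11.8 to 12.6 in female +/+, 7.497 to 26.4 in male E147A/+ and 5.11 to 29.8 in male +/+, and male +/+ 3 and male E147A/+ 3 held the highest sums. The 6 microglia markers deviated by 0.88 and 2.31 in the 2 low libraries and the 5 endothelium markers by 1.00 and 1.134, at summed levels of 1.08 and 2.83 CPM and of 3.82 and 4.12 CPM. Endothelium markers were also at 1.00 in male E147A/+ 3 and 0.74 in female +/+ 2, and microglia markers at 0.76 and 0.79 in female E147A/+ 1 and 2. The members were at 0.21, 0.08, 0.29 and 0.18 in these libraries. Neural stem and radial glia markers deviated by 0.05 in female +/+ 1 and by -0.50 in male +/+ 3, and astrocyte markers by -0.02 and -0.38. The 20 proliferation genes deviated by 0.26 and 0.42 in the 2 low libraries, by 0.45 in female +/+ 2, where the members were at 0.08, and by -0.65 in male E147A/+ 3 and in male +/+ 1. The part of these groups in the ribosomal protein levels was not tested.

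Between genotypes, most members were fitted higher in E147A/+ and no member passed the adjusted threshold of 0.05 in edgeR's quasi-likelihood test. Over both sexes 65 of 71 members had a log2 fold change above 0, where 48% of all genes tested did, and the median was 0.23, against -0.01 over all genes. At that threshold 0 of 71 members were called, with a percentage called over all genes of 0.0818% (14 of 17110). At an unadjusted p under 0.05, 16 members passed, all higher in E147A/+, where 5.9% of all genes passed and 3.05% passed in that direction. That count was 3 without female +/+ 1 (4.23%, below the 5.29% of all genes in that fit), 34 without female +/+ 2 (47.9% against 5.16%), 8 without female E147A/+ 1 (11.3% against 3.69%) and 5 with litter as a covariate (7.04% against 3.77%). It lay between 10 and 17 without each male library (14.1% to 23.9% of members), where 3.75% to 10.5% of all genes passed. In the fit with litter, female E147A/+ 2 and male +/+ 1, each alone in its litter, did not inform the genotype difference. The female part of that fit rested on female E147A/+ 1 and on a litter 1 to litter 3 difference taken from males. These p-values measure the spread between cultures of separate embryos.

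Rps12, a small-subunit protein gene at chromosome 10, 23785183 to 23787275 (GRCm38, minus strand), had the lowest p. Its level was 605 and 782 CPM in female E147A/+, 256 and 341 in female +/+, 563, 566 and 571 in male E147A/+, with 371, 564 and 406 in male +/+. Females of the 2 genotypes did not overlap, whereas the male +/+ 2 library lay within the male E147A/+ range. Over both sexes the fitted log2 change was 0.78 (SE 0.16, edgeR adjusted p = 0.260). Within litter 1 the male levels were close to each other (563 and 566 in E147A/+, 564 in +/+), and within litter 3 the male E147A/+ library stood at 571 and the male +/+ one at 406.

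Rps16 (chromosome 7, 28350652 to 28353155, plus strand), which sits in the head of the small subunit, stood at 1196 and 1049 CPM in female E147A/+ and at 542 and 752 in female +/+. It stood at 937, 878 and 897 in male E147A/+ and at 724, 886 and 532 in male +/+. The female groups did not overlap and the male ones did, with a log2 fold change of 0.57 (SE 0.17, edgeR adjusted p = 0.687). Rpl35a and Rps28 had log2 fold changes of 0.54 (SE 0.18) and 0.44 (SE 0.15), both with an edgeR adjusted p of 0.732. Besides Rps12, the highest fold changes over both sexes were those of Rps2 (0.68, SE 0.26, edgeR adjusted p = 0.786) and Rpl17 (0.60, SE 0.20, edgeR adjusted p = 0.737). The lowest were those of Rpl29 (-0.34, SE 0.53), Rpl21 (-0.09, SE 0.16) and Rps27a (-0.09, SE 0.22). Without each library in turn they ranged from -0.73 to 0.0463, from -0.13 to -0.01 and from -0.26 to 0.14.

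**Figure D3:**
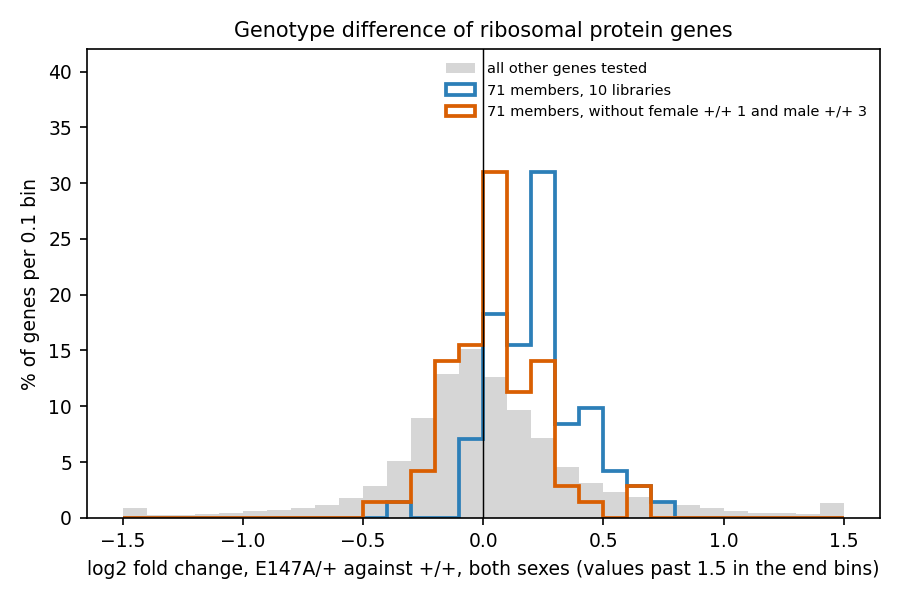
Distribution of the edgeR log2 fold change of E147A/+ against +/+ over both sexes (horizontal axis) as percent of genes per bin (vertical axis), for all other genes tested (grey), the 71 members in all 10 libraries (blue) and the members without female +/+ 1 and male +/+ 3 (orange). The blue outline lies to the right of the grey bars (median 0.23), and the orange one lies closer to them (median 0.05).

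In females 67 of 71 members were fitted higher in E147A/+, where 48.8% of all genes were, with a median log2 fold change of 0.35. In 41 members both E147A/+ libraries lay above both +/+ libraries, where 21.8% of all genes were so separated, and in 1 member both lay below (19.3% of all genes). At the adjusted threshold 0 members were called (0.0117% of all genes), and 14 passed an unadjusted p under 0.05, all higher in E147A/+ (4.36% of all genes passed and 2.7% in that direction). These 14 became 2 without female +/+ 1 (4.35% of all genes), 34 without female +/+ 2 (3.35%), 23 with voom (7.86%), 3 and 6 without female E147A/+ 1 and 2 (2.53% and 2.41%), and 4 with litter as a covariate (1.67%). Leaving out each male library in turn gave 8 to 19 (11.3% to 26.8% of members), where 3.57% to 6.87% of all genes passed. The limit of the litter fit given above holds here too. The lowest p belonged to Rps12 (1.22, SE 0.25, edgeR adjusted p = 0.470), and Rps16 (0.79), Rpl35a (0.85) and Rps19 (0.69), a gene mutated in Diamond-Blackfan anemia, were also among the lowest. Rps19 stood at 1523 and 1333 CPM in female E147A/+ and at 751 and 1025 in female +/+, without overlap.

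In males 53 of 71 members were fitted higher in E147A/+, where 47.3% of all genes were, and the median was 0.09. That count was 35 without male +/+ 3, 36 without male E147A/+ 3, 37 with voom and 62 with litter as a covariate, with medians of -0.00692, 0.00268, 0.00421 and 0.20. At the adjusted threshold 0 members were called (0.0234% of all genes), and 0 passed an unadjusted p under 0.05 (3.44% of all genes passed and 1.62% with higher levels in E147A/+). Without male +/+ 2, 5 members passed (7.04%, against 5.52% of all genes), and without male +/+ 1, 2 did (2.82%, against 6.64% of all genes). All E147A/+ libraries lay above all +/+ libraries in 3 members (3.2% of all genes) and below in 1 (3.96%). The lowest p values were those of Rpl21, with a log2 fold change of -0.44 (SE 0.20), and of Rps2 with 0.70 (SE 0.32), Rps6 with 0.45, Rpl17 with 0.47 and Rpl6 with 0.37. Rpl21 stood at 12.1, 12.8 and 10.9 CPM in male E147A/+ and at 14.2, 14.7 and 19.4 in male +/+, which did not overlap. In females the order was the opposite, with 15.7 and 17.01 CPM in E147A/+ and 13.7 in both +/+ libraries.

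The difference between the sexes was itself fitted as an interaction. Of 71 members, 60 had a larger log2 fold change in females (53.2% of all genes did), with a median difference of 0.23, and 0 were called, as were 0 of all genes (0%). At an unadjusted p under 0.05, 1 member passed, Rps12 (0.87, SE 0.32), and 1.84% of all genes did (314 of 17110), 0.929% in that direction. That count was 16 without female +/+ 2 (1.99% of all genes), 10 without male +/+ 3 (3.31%), 13 with voom (2.51%) and 0 without female +/+ 1 (2.57%). The 60 members with a larger value in females became 28 without female +/+ 1 and 71 without female +/+ 2.

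The size of these differences rested in good part on the 2 low libraries. Without female +/+ 1 and male +/+ 3, a choice made after their values were seen, the median over both sexes fell from 0.23 to 0.05, with 45 of 71 members above 0 and 5 at an unadjusted p under 0.05 (7.04%, close to the 6.69% of all genes). Without female +/+ 1 alone the medians were 0.11 over both sexes and 0.11 in females, and the interaction median turned to -0.05. Without female +/+ 2 they were 0.36 over both sexes and 0.61 in females, and without male +/+ 3 the male median was -0.01. Rps12 was less affected, with 0.65 over both sexes without both low libraries (edgeR adjusted p = 0.582). DESeq2 called Rps12 (0.78, DESeq2 adjusted p = 0.00281) over both sexes, and it called 2 of 71 members over both sexes (113 of 17110 genes) and 2 in females (44 of 17110 genes), Rps12 among them each time. Over all alternatives the Rps12 log2 fold change ranged from 0.52 to 0.89 and its adjusted p from 0.00281 to 0.980.

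Genes named as pseudogene copies of members were among those that did pass. Of 17110 genes tested, 374 (2.19%) share an 80-base stretch with a member. Of the 14 called over both sexes, 3 did (21.4%), namely Rps2-ps13, Rps18-ps6 and Rpl36-ps3, all lower in E147A/+. Rps2-ps13 and Rpl36-ps3 are annotated as processed pseudogenes and Rps18-ps6 as protein-coding. Rps2-ps13, on the X chromosome, held 2763 and 2557 counts in female E147A/+, 9580 and 15416 in female +/+, 2253, 1139 and 2999 in male E147A/+, with 10523, 4495 and 9775 in male +/+. The groups did not overlap in either sex, and the fitted log2 change was -2.35 (SE 0.27, edgeR adjusted p = 0.0164). Its mean was 61.2% of that of Rps2. Rps18-ps6 and Rpl36-ps3 reached 2.32% and 6.005% of the level of Rps18 and Rpl36.

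Rps2 itself (chromosome 17, 24718116 to 24721929, plus strand) stood at 440 and 428 CPM in female E147A/+, 258 and 290.1 in female +/+, 305, 225 and 539 in male E147A/+, with 269, 143 and 248 in male +/+. The female groups did not overlap and the male ones did. The members were also summed with all tested genes that share an 80-base stretch with them, again a choice made after the data were seen. For Rps2, with 27 copies that held 58.8% of the sum, the levels became 862 and 858 CPM in female E147A/+, 738 and 907 in female +/+, 636, 457 and 1094 in male E147A/+, with 843, 458 and 778 in male +/+. With copies the groups overlapped in both sexes, and the log2 ratio of means went from 0.68 to 0.07. Without copies the Rps2 value was 1.30 with litter as a covariate and 0.47 to 0.80 without each library. For Rpl29, whose 19 copies held 97.4% of the sum, it went from -0.34 to 0.32. Rpl21, with 28 copies at 94.5% of the sum, stayed at -0.09. With copies its male groups overlapped (201, 210 and 363 CPM in E147A/+ against 351, 231 and 265 in +/+), as did the female ones (208 and 284 against 253 in both +/+ libraries). Rps10 went from 0.22 to 0.39. Rps12 kept its difference (0.78 without and 0.82 with copies, which held 24.5%). Over the list, 68 members have a tested copy, copies held over 10% of the sum in 48, and the median log2 ratio was 0.23 without and 0.22 with them, with 65 of 71 above 0 either way.

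**Figure D4:**
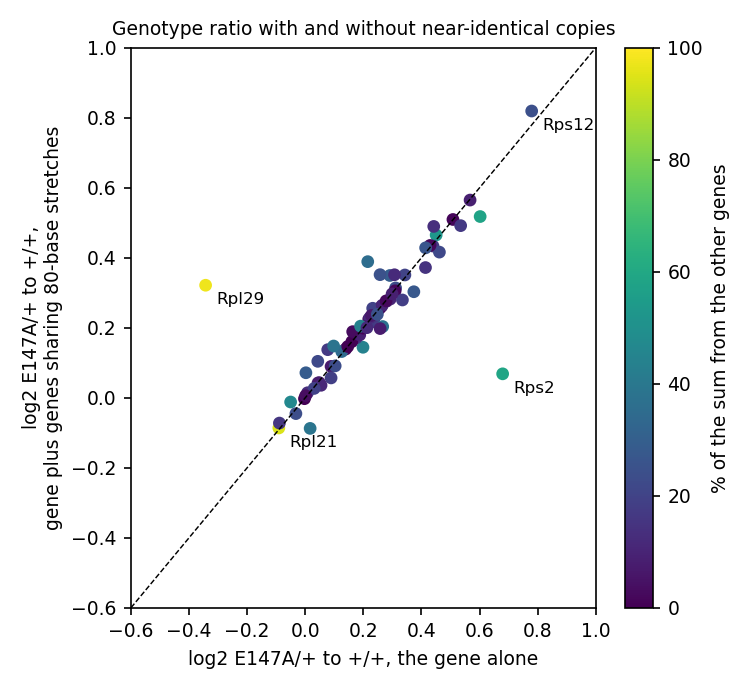
Log2 ratio of mean CPM, E147A/+ to +/+ over both sexes, of each of the 71 members alone (horizontal axis) and after the counts of genes that share an 80-base stretch were added (vertical axis), with the diagonal drawn and the share of the sum held by the other genes as colour. Most members lie near the diagonal, while Rps2 falls from 0.68 to 0.07 and Rpl29 rises from -0.34 to 0.32.

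The parents of these 3 copies lie on chromosome 17. In both female +/+ libraries the genes around all 6 chromosome 17 members (Rps2, Rps10, Rps18, Rps28, Rpl10a and Rpl36) carried Cast counts, and in both female E147A/+ libraries they did not. Rps27a on chromosome 11 was the seventh member with this pattern. The median female log2 fold change was 0.52 over these 7 members, 0.03 over the 3 with Cast around them only in E147A/+ (Rpl4, Rpl22 and Rplp1) and 0.35 over the other 61. Of the copies, Rpl36-ps3 had enough allelic counts to be read, with a Cast share of 53.3% (45.4 to 61.1, 150 allelic counts) and 62.8% (54.4 to 70.4, 137) in female E147A/+ and 90.7% (88.1 to 92.7, 599) and 90.2% (88.2 to 91.9, 1050) in female +/+. Rps2-ps13 and Rps18-ps6 had at most 4 in any library. The part of this difference in alleles in the genotype comparison was not tested.

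Among cell type markers, the oligodendrocyte lineage genes Pdgfra and Sox10 differed most by p over both sexes. Pdgfra stood at 5.77 and 2.84 CPM in female E147A/+, 14.0 and 66.6 in female +/+, 22.6, 24.0 and 10.7 in male E147A/+, with 85.0, 47.2 and 33.4 in male +/+. The groups did not overlap in either sex, with a log2 fold change of -2.38 (SE 0.48, edgeR adjusted p = 0.249). Sox10 had -2.29 (SE 0.76, edgeR adjusted p = 0.727) and the neuron marker Rbfox3 1.36 (SE 0.49, edgeR adjusted p = 0.772). Of 7 oligodendrocyte lineage markers tested, 2 were fitted higher in E147A/+ (median -0.30), and the summed level was 1895 to 1955 CPM in female E147A/+, 1902 to 1940 in female +/+, 1359 to 2018 in male E147A/+ and 1864 to 2037 in male +/+. Of 10 neuron markers, 3 were fitted higher over both sexes, 1 in females (median -0.39) and 8 in males (median 0.48). Endothelium markers were fitted higher in 1 of 5 (median -0.95) and mesenchyme and pericyte markers in 1 of 6 (median -0.62). Their part in the ribosomal protein differences was not tested.

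Genes of related function gave a mixed picture, and no gene of any list was called in any of the 4 contrasts in edgeR. Of 4 X-linked ribosomal protein genes, 3 were fitted higher in E147A/+ over both sexes (median log2 fold change 0.18). Rpl10, which completes the large subunit, had 0.41 and Rps4x 0.36. Of 11 ribosomal proteins and paralogs outside the name pattern, 6 were higher (median 0.10), with Fau at 0.46 and Rps3a1 at 0.35. Of 32 translation factors and other messages known for an oligopyrimidine start, 28 were higher (median 0.22). The small nucleolar RNA host genes Snhg12 and Snhg1 had the lowest p there, with 0.68 (SE 0.15, edgeR adjusted p = 0.292) and 0.53. Like the members, these messages were low in female +/+ 1 and male +/+ 3 (median deviations -0.32 and -0.14), as were the X-linked genes (-0.45 and -0.28). The list outside the name pattern had a median of -0.32 in female +/+ 1 and of 0.14 in male +/+ 3, although its summed level was lowest in these libraries (5317 and 5995 CPM, against 6601 to 8202 in the others).

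Mitochondrial ribosomal proteins did not share this pattern. Of 81, 30 were fitted higher (median -0.05), and they deviated by 0.12 and 0.22 in the 2 libraries where the cytosolic ones were low. Mrps10 had a log2 fold change of 0.35 and Mrps11 of -0.40. Ribosome biogenesis genes were higher in 26 of 50 (median 0.01, Utp14a 0.30 and Taf1c 0.29), and regulators of ribosomal protein synthesis in 8 of 18 (median -0.02, Larp1 0.27 and Rps6kb2 0.41). p53 targets were higher in 4 of 16 (median -0.16, Ei24 -0.37 and Phlda3 -0.47). Proliferation genes were higher in 0 of 20 (median -0.29), with Cenpf at -0.66 (SE 0.14, edgeR adjusted p = 0.292) and Ccnb2 at -0.41.

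Outside the members, the gene whose deviations were most like the median member was Eef1b2, the exchange factor subunit of translation elongation factor 1, with r = 0.978 over the 10 libraries and 0.921 over 8. It stood at 1334 and 1295 CPM in female E147A/+, 872 and 1230.2 in female +/+, 1062, 1076 and 1234 in male E147A/+, with 1175, 1168 and 945 in male +/+. As for the members, its lowest values were in female +/+ 1 and male +/+ 3. The next were Gm15500 (0.959), Gm2000 (0.944), Prkag2 (0.937), Gm6136 (0.916), Gm4332 (0.915), Rps15a-ps6 (0.914) and Pigx (0.912), out of 6624 genes compared. Of these 8 genes 5 share an 80-base stretch with a member, Gm15500 with Rpl5, Gm2000 with Rpl35, Gm6136 with Rpl6, Gm4332 with Rps20 and Rps15a-ps6 with Rps15a.

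In the 4 female libraries, 27.8% to 30.2% of member counts were assigned to the 129 or the Cast allele, against 30.6% to 31.7% of all counts. In each library 20 or 21 members had under 5% of their counts assigned. The labels name a Castaneus father, yet large autosomal stretches held almost no Cast counts. Each member was therefore classed by the median Cast share of the genes within 5 Mb of it, members left out, as carrying Cast (35 to 65%) or none (under 15%). By this class 23 and 28 members carried Cast in female E147A/+ 1 and 2, and 34 and 38 in female +/+ 1 and 2, while 47, 41, 35 and 30 carried none. Why stretches lack Cast was not tested.

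Where Cast was carried, the median Cast share of members was 47.1%, 49.0%, 48.6% and 46.5% in female E147A/+ 1 and 2 and female +/+ 1 and 2, and that of the other genes 49.3%, 49.4%, 49.0% and 49.5%. Single members lay on both sides of an even share. limma tested 6684 genes on log2 of Cast over 129 counts and called 1865 at an adjusted p under 0.05, a percentage called of 27.9%. Of 45 members tested 27 were called (60%), 11 with more Cast (12.1% of all genes) and 16 with more 129 (15.8% of all genes). Among the 27 were Rps15a, Rpl34, Rplp1 and Rps13. From surroundings without Cast to surroundings with it, their mean Cast share changed by -0.99, 1.58, 2.91 and 9.55 points. For these members the call therefore need not reflect the balance of the alleles. The median size of the log2 ratio was 0.47 in members and 0.23 in all genes. The median SE of that ratio was also smaller in members (0.0524 against 0.125).

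Rps26 (chromosome 10, 128624534 to 128626747, minus strand), which lines the message exit channel, lay farthest toward 129. Its Cast share was 16.0% (95% Wilson interval 15.3 to 16.8, 8612 allelic counts) and 16.1% (15.31 to 16.96) in female E147A/+, and 17.8% (16.6 to 19.0) and 19.8% (18.9 to 20.8) in female +/+. All 4 libraries lay far below an even share while the genes around Rps26 stood at 46.3% to 49.3%, and the log2 ratio was -2.25 (SE 0.06). With Cast around it in all 4 libraries, a change with the region could not be followed for Rps26. It shares 80-base stretches with 4 other genes, 3 of them pseudogenes. Rpl15 (chromosome 14, 18267823 to 18271391, minus strand) had 20.2% and 19.0% in the 2 libraries with Cast around it (log2 ratio -2.04). Rpl7a (-1.76), Rps2 (-1.53) and Rps9 (-0.94) followed toward 129 among members with Cast around them in 2 or more libraries. Rpl11 (24.0%) and Rps15 (28.2%), each with 1 such library, also had lower Cast shares than Rps9 (34.3% and 34.2%). In its 3 libraries without Cast around it, however, Rpl11 had 19.7% to 21.5%, so its share changed little with the region. Rps15 had 0.17% to 1.04% in its 3 libraries of that kind. Rps2 had 27.1% and 24.5% Cast in the 2 female +/+ libraries, against 50.4% and 50.2% in its surroundings. The intervals cover counting error only, since reads were not marked as molecules.

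Rps10 (chromosome 17, 27630418 to 27636669, minus strand) lay farthest toward Cast among members with Cast around them in 2 or more libraries, with 80.6% (79.1 to 82.0, 2906 allelic counts) and 80.0% (78.9 to 81.1) in female +/+ and a log2 ratio of 2.02. Rpl3, at the peptidyl transferase centre of the large subunit, had 69.1% and 71.1% (1.23), Rpl28 67.6% and 70.7% (1.16), and Rpl27a 65.2% and 65.8% (0.92). Rpl3 still had 18.5% and 19.7% Cast in its 2 libraries without Cast around it. Rps10 had 2.11% and 2.64% in such libraries, Rpl28 0.43% and 1.84%, and Rpl27a 0.18% and 0.28%. Rps10, Rpl3, Rpl28 and Rpl27a were named for their high Cast share in 2 libraries each, so lying on the Cast side in both adds no support. Rpl24 had the same log2 ratio of 0.92 (SE 0.34, limma adjusted p = 0.094) on only 54 and 31 allelic counts and was not called. Rpl17 (90.4%, female E147A/+ 2), Rpl6 (82.8%, female E147A/+ 1) and Rps6 (78.2%, female +/+ 1) also had high Cast shares, each in the 1 library with Cast around it. Other members lay at an even share, such as Rpl14 with 50.7%, 50.5%, 48.6% and 50.7%.

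**Figure D5:**
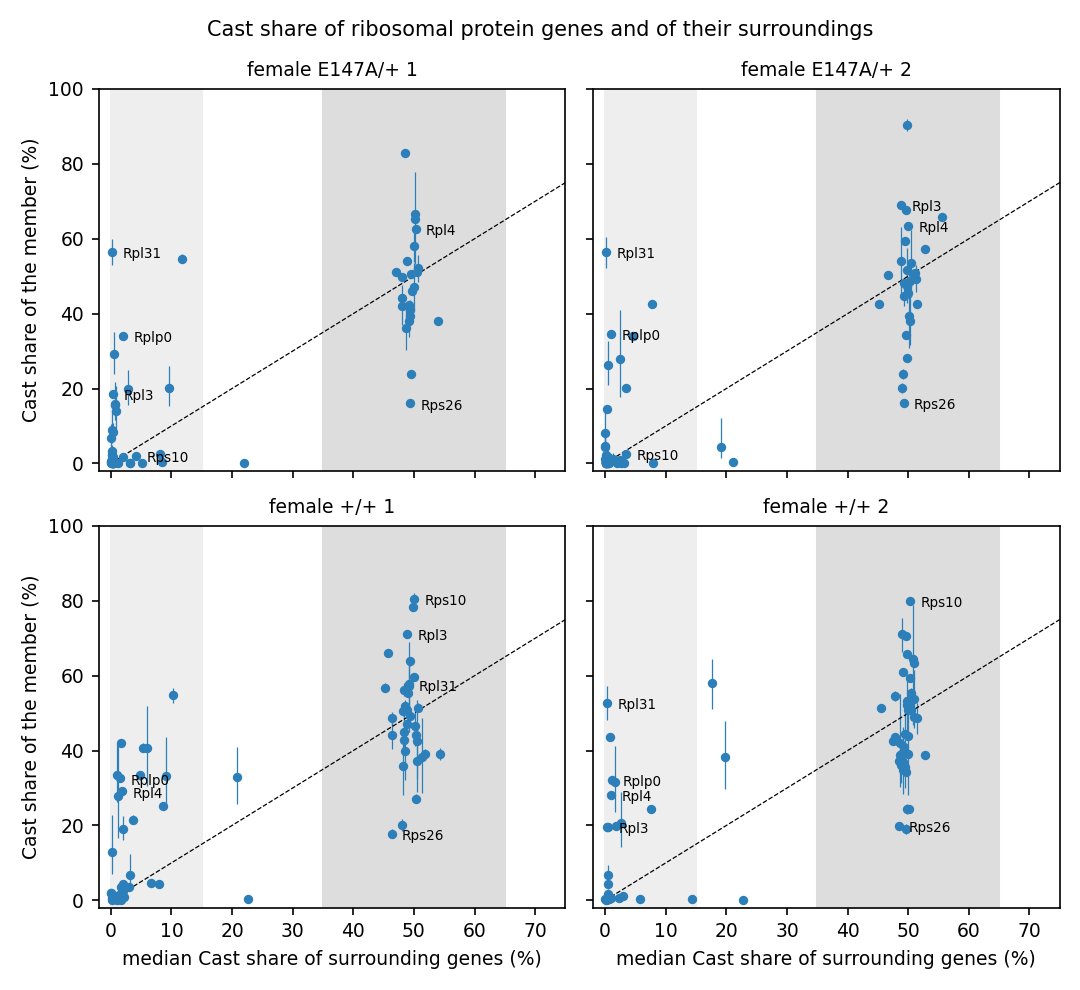
Cast share of allelic counts of each member with at least 20 allelic counts (percent, vertical axis, bars are 95% Wilson intervals) against the median Cast share of the genes within 5 Mb (percent, horizontal axis), in 1 panel for each female library, with the diagonal dashed and the classes without and with Cast shaded. Members in Cast-carrying surroundings scatter from Rps26 at 16.0% to Rpl17 at 90.4%, and in surroundings without Cast several, such as Rpl31 at 56.5%, lie far above the rest.

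Where the surroundings carried no Cast, most members had almost none, and a minority had a large Cast share. The median was 0.536%, 0.630%, 4.30% and 0.609% in the 4 libraries, against 0.304%, 0.229%, 1.14% and 0.474% in other genes. Members above 5% numbered 13, 9, 15 and 11 (27.7%, 22.0%, 42.9% and 36.7% of those without Cast around them), against 24.7%, 27.0%, 27.8% and 26.2% of other genes. Rpl31 (chromosome 1, 39367842 to 39371911) had 56.5% (52.96 to 59.93, 772 allelic counts), 56.4% and 52.8% in the 3 libraries without Cast around it and 57.7% in the library with it. Its share with Cast in the region lay within 5 points of those without it. Rpl34 likewise had 54.7% and 54.8% without and 57.3% and 55.4% with, and Rps15a 42.5% and 40.8% without and 42.4% and 38.9% with. Rplp1 had 42.02% and 43.7% without and 45.9% and 45.6% with, and Rps13 34.1% and 33.4% without and 44.1% and 42.5% with.

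Rplp0 (chromosome 5, 115559467 to 115563727), the anchor of the ribosomal stalk, lacked Cast around it in all 4 libraries, where the surroundings stood at 1.05% to 2.06%. Its Cast share was nevertheless 34.1% (33.7 to 34.6), 34.7% (34.2 to 35.1), 32.6% (32.1 to 33.1) and 32.2% (31.7 to 32.6) on 30417 to 47198 allelic counts. Since its surroundings were alike in all 4 libraries, a change with the region could not be followed for Rplp0. Rpl4 and Rpl22 showed both parts, with 29.1% and 28.2% Cast for Rpl4 without Cast around it and 62.7% and 63.4% with it, and with 25.1% and 24.3% against 49.8% and 50.2% for Rpl22.

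The change from surroundings without Cast to surroundings with it could be followed within 57 members, and the Cast share rose by a median of 43.1 points, against 46.2 in 9877 other genes. It rose by under 20 points in 8 members (14.0%), against 11.3% of other genes. Counts assigned to 129, per total count of the gene, fell to a median of 0.511 of their level, against 0.530 in other genes. In 5 members (8.77%, against 0.658% of other genes) the allelic counts per total count rose by more than 1.5 times, among them Rpl17 (5.87), Rpl6 (2.79), Rps10 (2.41) and Rps6 (1.63). For Rps10 the 129 counts went from 9.38% to 4.56% of the total and the Cast counts from 0.23% to 18.6%. A larger part of its counts was thus assigned where Cast was present, and the part of this in its Cast share was not tested.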

How the data were processed

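Per the submitters' processing notes, Trim Galore 0.4.4, HISAT2 2.0.5, featureCounts, R 3.5.1 and edgeR 3.24.0 were used with builds GRCm38 and mm10. How strand was used and how alleles were assigned is not given in the sources used here. The authors deposited 1 table of raw whole-number counts per gene, with total counts for 10 libraries and 129 and Cast counts for the 4 female ones. Each column was used, and depth is the total count.

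The members, gene lists and tests were chosen with earlier results of these data known. Groups came from the titles. Genes kept by filterByExpr (17110) were scaled by TMM and tested with edgeR 4.0.16 (R 4.3.3), quasi-likelihood F test, 1 mean per group, 6 residual degrees of freedom, Benjamini-Hochberg over all genes tested. Standard errors are the fold change over the root of F. Allelic ratios were tested with limma 3.58.1 on log2((Cast + 0.5)/(129 + 0.5)) against 0, for gene and library pairs with 20 or more allelic counts and Cast around them. Shared stretches of 80 bases were found in GENCODE transcripts. Genes were named by rank of level, p, fold change, spread, likeness or Cast share, with Smchd1, called genes and the 2 lowest p of each list. A few members are not reported here by name. Alternatives were RLE and member-free TMM scaling, DESeq2 1.42.0, voom with quality weights, no filter, 10 counts everywhere, only the groups compared, litter, a replicate block, other allelic cutoffs and leaving out each library. On simulated counts for 16781 genes, 93 of 97 log2 changes of 3 and 39 of 98 of 1 were recovered over both sexes, with 10 false calls.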

Additional observations from a re-analysis of the deposited data

How the results depend on the processing

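The median log2 fold change of members over both sexes ranged from 0.11 to 0.36 when each library was left out, in females from 0.11 to 0.61, in males from -0.00692 to 0.21 and for the interaction from -0.0476 to 0.56. The negative values came without male +/+ 3 and without female +/+ 1. Without both together, a choice added after the data were seen, the medians were 0.12 in females and -0.00726 in males. The difference in summed share ranged from 0.388 to 1.33 points. Rps27a turned to 0.28 with litter as a covariate and ranged from -0.26 to 0.14 without each library, and Rpl29 turned to 0.32 with copies added and ranged from -0.73 to 0.0463 without each library. DESeq2 called 2 members over both sexes and 2 in females.

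Genes called over both sexes (14) became 113 with DESeq2, 29 with voom, 33 without a filter, 9 with 10 counts everywhere, 3 with litter as a covariate, 7 without both low libraries and 2 to 12 without each library. In females (2) they became 44 with DESeq2, 8 without a filter, 1 with only the groups compared, 0 with litter and 0 to 2 without each library. In males (4) they became 46 with DESeq2, 9 with voom, 14 without a filter, 1 with only the groups compared, 2 with litter and 1 to 4 without each library. For the interaction (0) they became 2 with DESeq2, 1 with litter and 0 to 1 without each library. With a replicate block, genes called were 5 over both sexes, 0 in females and 2 in males, and with the female numbers of the block crossed 6 over both sexes and 0 in females. Same-numbered libraries had correlations of deviations of -0.304 in females and -0.238, 0.416 and 0.034 in males. Deviations from a mean of 2 or 3 libraries are tied to each other, so these values cannot settle whether the numbers pair libraries. Male numbers 2 and 3 each join libraries of the same litter, while male number 1 and the female numbers do not. Leaving out each female library left 4239 to 4877 genes and 22 to 32 members in the allelic test. It called 956 to 1359 genes (22.6% to 27.9%) and 10 to 20 members (45.5% to 62.5%). Member medians were 47.8 to 48.6% where Cast was carried and 0.594 to 1.59% where it was not. Unless a cause is named, the cause was not tested. Low allelic counts limit Rpl24 and the 20 or 21 members with under 5% of counts assigned.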
